A study of Caenorhabditis elegans with 2 samples.

Results

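Autosomal distal intergenic sites of a GFP-tagged protein, F22D6.2, were taken from ChIP-seq, the sequencing of DNA precipitated with a chromatin protein. The animals were intact Caenorhabditis elegans hermaphrodites at the young adult stage. A site was a listed region of the list pooled from both replicates, on chromosomes I to V, with a deposited signal value of at least 40. Its summit lay outside every protein-coding gene body, more than 500 bp from every annotated protein-coding 5' end and more than 200 bp from every tRNA, snoRNA, snRNA or rRNA gene. Of 26002 listed regions, 3393 reached the signal minimum, 2662 of these were on autosomes and 596 met the whole rule. The sites were chosen by their signal value and position, so these are given as a description with no test. The worms were of strain OP399, genotype unc-119(tm4063) III with the insertion wgIs399, which provides F22D6.2 carrying GFP and FLAG at its C-terminus. Both samples carried these alleles, were collected 67 hours after synchronization by L1 starvation following bleaching, and were labelled biological replicates 1 and 2 of 1 group. An anti-GFP antibody pulled down the tagged protein. Samples without the transgene, other stages and other treatments were not analysed here, the insertion's promoter and copy number are not given in the sources used here, and whole animals do not tell cell types apart.

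Most nematode genes lie close together, so promoters and their upstream elements usually share short gaps between genes. Many nematode transcripts are trans-spliced: a spliced leader replaces the first part of the primary transcript, and the annotated 5' end can then lie downstream of the true transcription start. A site far from an annotated 5' end can therefore be an unannotated promoter, an enhancer that acts on a gene from a distance, or a start of non-coding transcription. In nematode ChIP-seq some open regulatory regions are also occupied by many unrelated factors. Which of these the sites are was not tested. In the gene models F22D6.2 has the symbol mstr-1.

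The sequences at the summits of sites 1 to 12, the highest, are shown whether or not they carry the elements counted below. Sites 16, 19 and 20 were added because each carries 1 of these elements. Sites are numbered by pooled signal value, from site 1 as the highest. Each run is the plus strand of ce11, 5' to 3', credited to the RefSeq copy of WBcel235, and is centred on the summit. Capitals mark matches on either strand to GAGAGA (a GA repeat), CACGTG (an E-box, the kind of element that basic helix-loop-helix factors bind) or AGACGCAG.
Site 1, 1939 bp upstream of sup-26, chrIII:4282013-4282312: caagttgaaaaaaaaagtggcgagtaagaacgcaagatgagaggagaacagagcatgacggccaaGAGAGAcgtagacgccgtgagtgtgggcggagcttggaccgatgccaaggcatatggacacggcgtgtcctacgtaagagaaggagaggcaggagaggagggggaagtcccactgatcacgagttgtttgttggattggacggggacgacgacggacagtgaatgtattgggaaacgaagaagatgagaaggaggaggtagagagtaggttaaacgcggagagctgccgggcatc
Site 2, inside linc-128, chrV:1151433-1151533: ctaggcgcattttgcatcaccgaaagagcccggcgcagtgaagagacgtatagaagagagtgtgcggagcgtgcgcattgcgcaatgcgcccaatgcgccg
Site 3, between lpin-1 and letm-1, chrV:13658704-13658804: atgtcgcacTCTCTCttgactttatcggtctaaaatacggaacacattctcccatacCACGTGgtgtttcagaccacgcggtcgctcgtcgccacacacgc
Site 4, between nhl-2 and tag-340, chrIII:4899898-4899998: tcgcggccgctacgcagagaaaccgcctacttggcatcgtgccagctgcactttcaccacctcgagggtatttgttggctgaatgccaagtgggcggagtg
Site 5, 2531 bp upstream of R11F4.1, chrII:4089349-4089449: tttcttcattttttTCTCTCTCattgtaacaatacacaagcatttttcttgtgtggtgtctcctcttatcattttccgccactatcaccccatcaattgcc
Site 6, 658 bp upstream of nhr-79, chrV:19212503-19212603: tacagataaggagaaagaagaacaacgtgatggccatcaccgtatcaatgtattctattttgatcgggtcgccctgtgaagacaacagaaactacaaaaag
Site 7, between T04C4.3 and fnip-2, chrIV:2219587-2219687: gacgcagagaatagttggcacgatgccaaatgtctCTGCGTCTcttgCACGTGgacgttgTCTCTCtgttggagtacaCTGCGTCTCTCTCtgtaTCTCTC
Site 8, 747 bp upstream of Y54G11A.2, chrII:14251560-14251660: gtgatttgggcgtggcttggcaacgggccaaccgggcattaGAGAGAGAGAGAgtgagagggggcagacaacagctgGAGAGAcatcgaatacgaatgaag
Site 9, 855 bp upstream of cbp-1, chrIII:9765604-9765704: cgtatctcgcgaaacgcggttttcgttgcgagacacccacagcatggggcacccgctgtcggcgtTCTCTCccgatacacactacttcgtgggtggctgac
Site 10, 515 bp upstream of K12H4.5, chrIII:8043922-8044022: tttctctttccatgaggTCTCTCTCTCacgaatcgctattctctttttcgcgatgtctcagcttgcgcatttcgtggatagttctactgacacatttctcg
Site 11, 484 bp past the 3' end of K08F11.1, chrIV:4725747-4725847: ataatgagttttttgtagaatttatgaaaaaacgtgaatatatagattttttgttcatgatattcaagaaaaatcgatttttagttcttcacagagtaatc
Site 12, between mif-4 and ipla-6, chrIV:6336814-6336914: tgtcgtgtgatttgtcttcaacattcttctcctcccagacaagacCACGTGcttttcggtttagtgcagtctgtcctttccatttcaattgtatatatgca
Site 16, 857 bp upstream of F16G10.6, chrII:2378658-2378758: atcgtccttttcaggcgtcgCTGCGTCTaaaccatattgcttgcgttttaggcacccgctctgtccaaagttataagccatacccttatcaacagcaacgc
Site 19, 2764 bp past the 3' end of K08F11.1, chrIV:4728027-4728127: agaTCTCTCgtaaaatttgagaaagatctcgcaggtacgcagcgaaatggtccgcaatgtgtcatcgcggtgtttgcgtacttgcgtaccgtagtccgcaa
Site 20, between gdh-1 and tgt-1, chrIV:11956488-11956588: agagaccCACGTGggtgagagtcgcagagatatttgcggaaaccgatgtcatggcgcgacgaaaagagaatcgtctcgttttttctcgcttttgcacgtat
Site 7 carries all 3 elements, and site 3 carries the GA repeat and the E-box within one stretch. Site 8 has a long GA run. Sites 2, 4, 6 and 11 hold none of the 3 in the stretch shown. Site 11 is rich in A and T, with a GC content of 22% in its central 100 bp, while the rest of the 20 highest sites reach up to 60%.

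Site 1 lay 1939 bp upstream of sup-26, which encodes an RNA-binding protein, in a gap of 5616 bp (chrIII:4281957-4282467). Its signal value was 408 in the pooled list, 203 in replicate 1 and 215 in replicate 2, at ranks 30 and 28 of those lists. The replicates gave it nearly the same place. Another summit of the same stretch, site 49, lay 2148 bp upstream of sup-26 with a pooled signal value of 121, at ranks 304 and 644. Farther up, site 111 lay 4610 bp from sup-26 with a pooled signal value of 86.8, at ranks 840 and 781. The gene thus had 3 sites, of which the highest was also the highest of all 596.

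Site 2 lay inside linc-128, a long intergenic non-coding RNA gene, 4788 bp upstream of cmd-1, the calmodulin gene (chrV:1151337-1151672). Its signal value was 378 pooled, 182 in replicate 1 and 197 in replicate 2, at ranks 38 and 33. Site 3 lay in the ncRNA gene H37A05.6, between letm-1, whose human relative is a mitochondrial inner membrane protein, at 2503 bp, and lpin-1, the lipin phosphatidate phosphatase gene, at 4625 bp (chrV:13658608-13658932). It had 328 pooled, 154 in replicate 1 and 179 in replicate 2, at ranks 47 and 39. Both sites therefore sat in annotated non-coding transcripts and ranked among the highest 50 of each replicate. Site 4 lay inside the ncRNA gene F26F4.14, 560 bp upstream of tag-340 and 863 bp upstream of nhl-2, which encodes a cofactor of microRNA silencing (chrIII:4899781-4900108). It had 315 pooled, 137 in replicate 1 and 179 in replicate 2, at ranks 60 and 40. It was higher in replicate 2 than in replicate 1, as were 15 of the 20 highest sites.

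Site 5 lay 2531 bp upstream of R11F4.1 with a signal value of 300.3 pooled, 146 in replicate 1 and 155 in replicate 2, at rank 52 in both (chrII:4089201-4089516). Site 6 lay 658 bp upstream of nhr-79, a nuclear hormone receptor gene, with 289 pooled, 118 in replicate 1 and 164 in replicate 2, at ranks 80 and 50 (chrV:19212392-19212720). Nuclear hormone receptors are a greatly expanded family of transcription factors in this worm. Site 7 lay 2781 bp upstream of T04C4.3 and 3191 bp upstream of fnip-2, with 252 pooled, 139 in replicate 1 and 112 in replicate 2, at ranks 57 and 92 (chrIV:2219488-2219787). Site 8 lay 160 bp past the 3' end of hmg-1.1, which encodes a high mobility group chromatin protein, and 747 bp upstream of Y54G11A.2, with 242 pooled, 112 and 132, at ranks 85 and 68 (chrII:14251472-14251706). A site so close to a 3' end was common, as described below. Site 9 lay 855 bp upstream of cbp-1, the histone acetyltransferase related to CBP and p300, with 239.7 pooled, 122 in replicate 1 and 118 in replicate 2, at ranks 76 and 86 (chrIII:9765493-9765804). Site 10 lay between K12H4.6 and K12H4.5, 515 bp upstream of the latter, with 230.2 pooled, 107 in replicate 1 and 120.2 in replicate 2, at ranks 98 and 78 (chrIII:8043823-8044105). Sites 1 to 11 thus each ranked within the highest 100 of both replicates.

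Sites 11 and 19 lay in the same gap of 12244 bp between K08F11.1 and fbxb-78, an F-box gene, beside an annotated pseudogene. Site 11 had 227 pooled, 111 in replicate 1 and 118 in replicate 2, at ranks 90 and 83 (chrIV:4725579-4726014). Site 19 had 176 pooled, 78.2 in replicate 1 and 97.5 in replicate 2, at ranks 182 and 121 (chrIV:4727950-4728158). The 300 bp around site 11 has 1 further copy in the genome and that around site 19 has 7, so reads from the copies may add to either. Site 18, 516 bp upstream of eel-1, a HECT ubiquitin ligase gene, was 91.7% repeat-masked with 48 further copies. It had 182 pooled, 86.7 in replicate 1 and 93.6 in replicate 2, at ranks 141 and 130 (chrIV:3050402-3050837). How the authors placed reads that match several positions is not given in the sources used here, and the part of copies in these values was not tested. The other 17 of the 20 highest sites had no further copy.

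Site 12 lay between mif-4, which encodes a relative of macrophage migration inhibitory factor, at 870 bp and ipla-6, a phospholipase gene, at 789 bp (chrIV:6336806-6336972). It had 205 pooled, 86.5 in replicate 1 and 122 in replicate 2, at ranks 142 and 76. Site 13, 2607 bp upstream of F58D12.3, had 203 pooled, 129.9 in replicate 1 and 75.9 in replicate 2, at ranks 67 and 221 (chrV:14055089-14055373). It had the widest gap between replicate ranks among the 20 highest sites. Site 14, in the ncRNA genes between T23F11.6 and the phosphatase gene ppm-2, had 200.5 pooled, 79.7 in replicate 1 and 118 in replicate 2 (chrIII:4649389-4649550). Site 15 lay 1523 bp upstream of nhr-21, another nuclear hormone receptor gene, and had 200.4 pooled, 83.2 in replicate 1 and 118 in replicate 2 (chrII:7337488-7337923). Site 16, 857 bp upstream of F16G10.6, had 196 pooled, 82.7 in replicate 1 and 116 in replicate 2 (chrII:2378682-2378790). All 3 were higher in replicate 2. Site 20 lay between the 3' ends of gdh-1, the glutamate dehydrogenase gene, and tgt-1, a tRNA guanine transglycosylase gene, inside the ncRNA gene ZK829.13. It had 165 pooled, 91.1 in replicate 1 and 71.7 in replicate 2, at ranks 124 and 250 (chrIV:11956429-11956647). No protein-coding 5' end faced it, and the nearest one lay 3266 bp away.

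**Figure D1:**
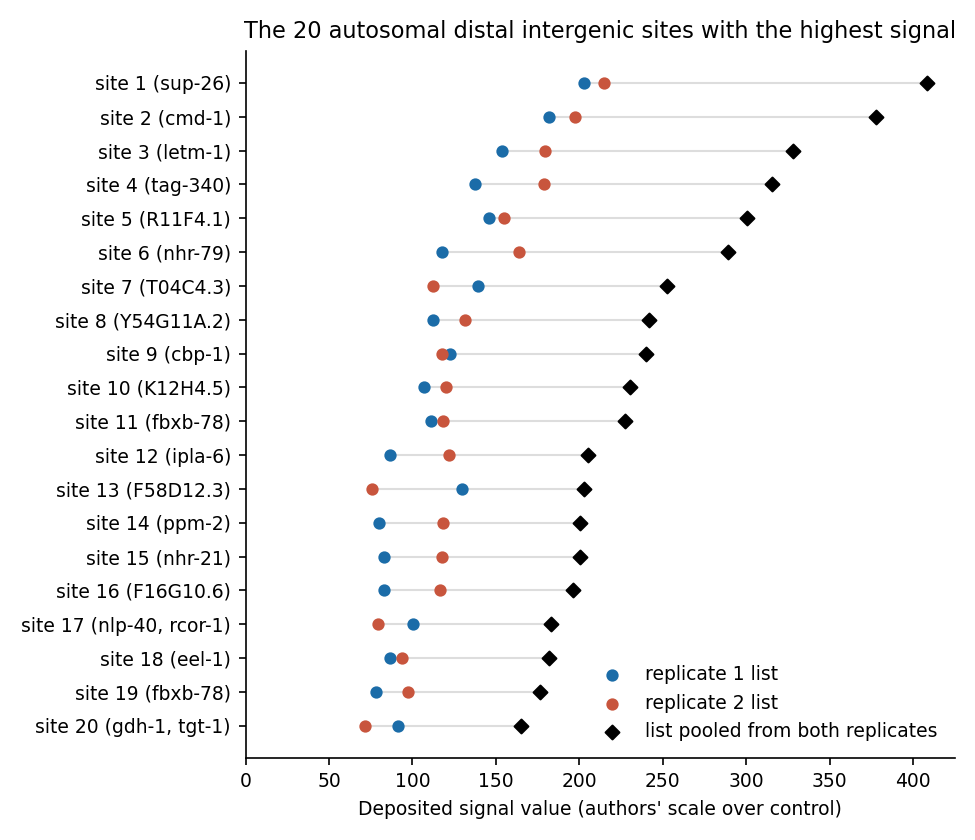
Deposited signal value (horizontal axis, the authors' scale over control) of the 20 highest sites, with a blue point for replicate 1, a red point for replicate 2 and a black diamond for the pooled list. Names give the facing gene, or both neighbours where no gene faces the site. Replicate values run from 71.7 to 215, and the higher of both is replicate 2 at 15 sites.

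Site 17, also among the 20 highest, lay between the 3' ends of nlp-40, a neuropeptide gene, and rcor-1, whose human relative is a corepressor, near the end of chromosome I. It had 183 pooled, 100.1 in replicate 1 and 79.3 in replicate 2, at ranks 109 and 202. Of the 20, 9 lay between divergent genes, 9 between tandem genes and 2 between convergent genes, and 5 lay inside a non-coding gene. GC content of the central 100 bp was above the median of all sites in 16 of them.

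Most sites were far lower than these. Over all 596 sites the pooled signal value ran from 40.02 to 408 with a median of 54.8, and 138 sites reached 80. Autosomal promoter sites, with a summit no more than 500 bp from such a 5' end and over the same minimum, had a median of 57.3 over 1214 sites. For 767 autosomal gene-body sites the median was 50.2, and for 215 distal intergenic sites of the X chromosome it was 57.2. By chromosome, medians lay between 52.5 on V and 57.5 on IV. Sites were most frequent per length on III, at 35.7 per Mb of sequence that the rule could accept, and least on V, at 20.7 per Mb. Between these were 29.3 on II, 26.9 on I and 22.6 on IV. The 3 values just inside the signal minimum were 40.02, 40.02 and 40.03, and the 3 just below it were 39.99, 39.96 and 39.95. For the distance from a 5' end the nearest sites kept lay at 503, 504 and 507 bp, and the nearest left out at 500, 499 and 498 bp. For small structured RNA genes those kept lay at 205, 220 and 231 bp, and those left out at 158, 145 and 138 bp.

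Summits gathered in places. The 596 sites fell in 551 distinct regions, and 176 had another site within 2000 bp. Of the 521 sites with a facing gene, meaning that the site lay upstream of it with no other protein-coding gene between, 173 faced a gene that had more than 1 site. The 419 facing genes comprised 348 with 1 site, 48 with 2, 17 with 3 and 6 with more. T09F3.2 and F26A3.4 had 5 each. Those upstream of T09F3.2 had pooled signal values of 120.6, 69.0, 55.1, 46.2 and 40.7, at 1892, 2910, 1203, 527 and 2663 bp. Those upstream of F26A3.4 had 91.1, 84.1, 61.4, 45.7 and 41.5, at 972, 2881, 1175, 3953 and 1991 bp. In neither set did signal order follow distance. W06H8.6 had 4, the highest with 156 pooled, 90.9 in replicate 1 and 69.6 in replicate 2 at 2624 bp.

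Regulators with 3 sites each included chd-7, a chromodomain helicase gene, and din-1, whose product interacts with the nuclear receptor DAF-12. Those of chd-7 had pooled signal values of 107, 92.4 and 42.3 at 2810, 850 and 1050 bp, all at linc-91. Those of din-1 had 95.5, 73.5 and 58.2 at 760, 2327 and 4051 bp. For both genes every site but 1 was found in both replicate lists, the exception being the lowest of chd-7, listed in replicate 2 only. atf-2, a bZIP transcription factor gene, had sites of 97.4, 85.7 and 68.9 within 4468 bp. Those of 97.4 and 85.7 were summits 213 bp apart, at 481 and 268 bp past the 3' end of mak-1. Their nearest protein-coding 5' ends lay at 2230 and 2017 bp, nearer than that of atf-2. The site of 97.4 had no match in replicate 1, and that of 85.7 ranked 2958 there. The sites of dmd-7, a member of the doublesex and mab-3 family, had 77.1, 59.96 and 58.96, all at 3504 bp or more.

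The tagged gene itself, mstr-1, faced 3 sites, with pooled signal values of 101, 46.1 and 48.2 at 983, 2397 and 5579 bp. The nearest had 39.8 in replicate 1 and 68.0 in replicate 2, at ranks 919 and 282. The other pair ranked 2155 and 2411 in replicate 1 and 3880 and 8976 in replicate 2. An inserted transgene can carry extra copies of the tagged locus, which raise signal there without binding, and these cannot be told apart here.

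Most sites were seen in both replicates, with ranks that often differed. Of 596 sites, 467 (78.4%, exact Clopper-Pearson 95% interval 74.8% to 81.6%) had a summit within 100 bp in both replicate lists, while 22.6% of all listed nuclear regions did. Those in replicate 1 only numbered 63, in replicate 2 only 61 and in neither 5. The pooled list was made from the same reads, so its highest regions come in part from either replicate by construction, and the same control served both. The interval covers the counting of sites only, since reads per sample were not given and depth was unknown. Autosomal promoter sites were in both lists at 81.9%, gene-body sites at 77.2% and X distal sites at 80%, and all 4 groups were chosen by the same signal minimum.

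A stricter match gave fewer. With only the 3393 highest regions of each replicate, 239 sites (40.1%) had a summit in both, against 5.46% of all listed nuclear regions. The share was 45.8% for promoter sites, 30.2% for gene-body sites and 50.7% for X distal sites. It was 63.6% in replicate 1 and 67.1% in replicate 2 taken singly. Among the 467 sites in both lists, 120 had ranks within 1.5-fold of each other and 103 had ranks at least 5-fold apart. The median ratio of the larger rank to the smaller was 2.27, and replicate 2 gave the better rank at 263 sites against 203 for replicate 1. Across these 467 sites the Spearman rank correlation of the replicate signal values was 0.394, a description over sites that share both libraries and their control. The sites were kept by a pooled value made from both replicates. Neither this correlation nor the rank ratios therefore measure replicate agreement over all listed regions. Sites that only 1 replicate listed were lower, with a median pooled signal value of 48.1 for replicate 1 only and 49.9 for replicate 2 only against 58.7 for sites in both. The highest of them, site 23 upstream of rpa-2, a replication protein gene, had 159.5 pooled and 71.6 in replicate 1 at rank 231. Site 98 lay 205 bp from it, with 88.5 in replicate 2 at rank 150, so replicate 2 had signal beside site 23 beyond the 100 bp match. The 300 bp around site 23 has 5 further copies in the genome and that around site 98 has 7. The part of these copies in the values was not tested.

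**Figure D2:**
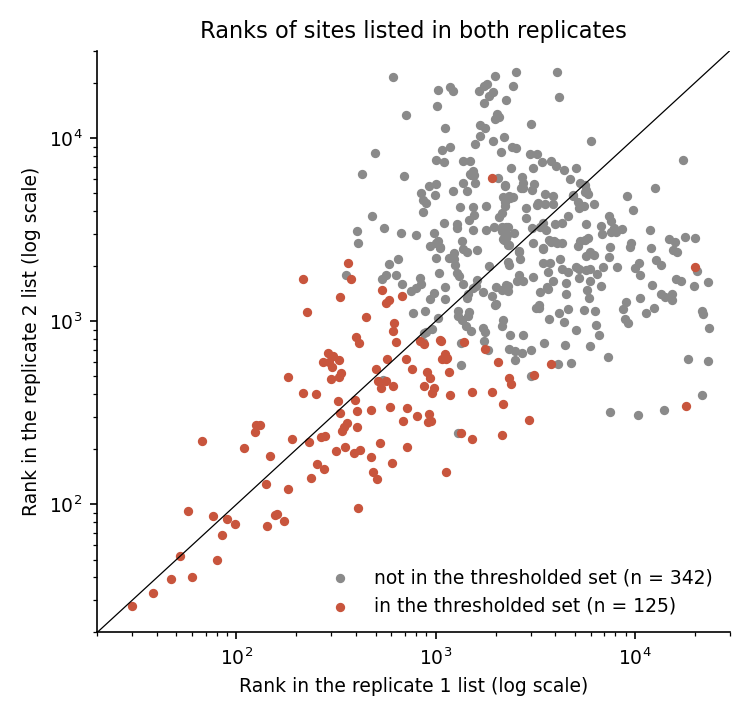
Rank of each of the 467 sites listed in both replicates, by signal value, in replicate 1 (horizontal, log scale) and replicate 2 (vertical, log scale). Red points are in the thresholded set, grey points are not, and the line marks equal ranks. The highest sites lie along the line and the lower ones spread to both sides, with 103 sites at ranks at least 5-fold apart.

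The authors' thresholded set held 137 of the sites (22.99%), against 2.99% of all listed nuclear regions. Of the 138 sites with a signal value of at least 80, 99.3% were in it, and when sites were divided by signal value into 4 sets of equal size, all 137 were in the highest set. Membership thus followed the pooled signal value, and it adds no separate evidence. In that set, of signal values from 78.5 to 408, 85.9% of sites were among the highest 3393 of both replicates. In the next it was 57.0%, then 16.8%, and in the lowest, from 40.02 to 45.2, 0.671%. The share in any part of both lists was 89.3%, 85.9%, 73.8% and 64.4% in the same order.

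Sites lay nearer to the genes they faced than the sequence open to them did. The median distance to the nearest protein-coding 5' end of any direction was 1680 bp, with quartiles of 1015 and 2716 bp. Sequence that the rule could accept, 23.05 Mb or 27.9% of the autosomes, was sampled every 500 bp, and its median was 2199 bp over 46115 positions. Listed regions of the same sequence with signal values under 40 lay between, at 1914 bp over 3916 regions. The facing 5' end was up to 1000 bp away at 21.8% of sites, 18.9% of lower regions and 16.5% of the sampled sequence. It was farther but within 2000 bp at 25%, 22.5% and 20.9%, and beyond that but within 5000 bp at 28.7%, 28.2% and 28.6%. It was over 5000 bp away at 11.9%, 15.9% and 19.3%. The excess therefore lay within 2000 bp and the deficit beyond 5000 bp. The gaps around the sites were also shorter, with a median of 4324 bp against 5128 bp for lower regions and 6389 bp for eligible sequence. The part of gap length in these distances was not tested. X distal sites lay farther out, with 20.9% over 5000 bp from the facing 5' end, in a chromosome where the median gap around sites was 6561 bp against 4324 bp for the autosomal sites.

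**Figure D3:**
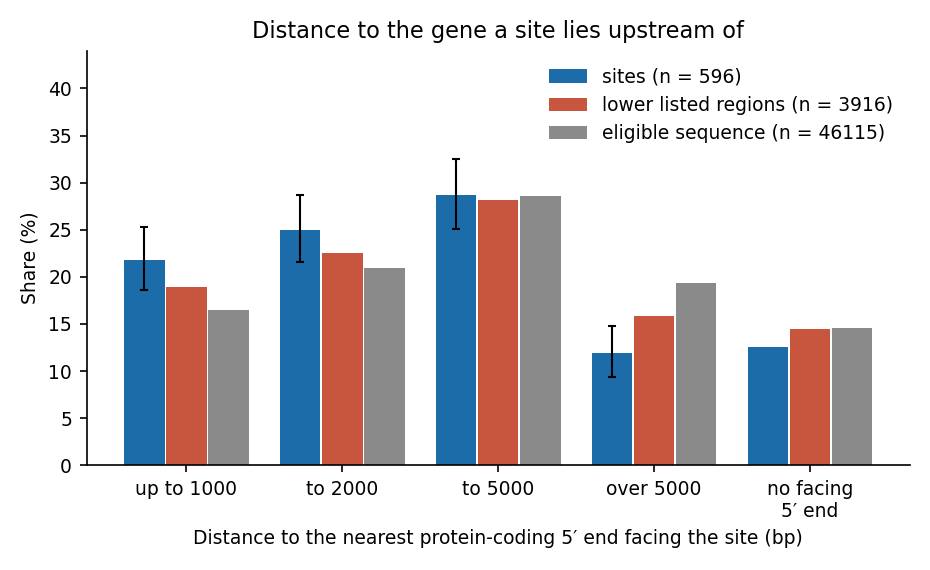
Share of positions (vertical axis, percent) by distance to the nearest protein-coding 5' end that faces them (horizontal axis, bp). Blue bars are the 596 sites with exact 95% intervals for the count of sites in the 4 distance classes, red bars the 3916 listed regions under the signal minimum and grey bars 46115 positions of eligible sequence. Up to 1000 bp the sites stand at 21.8% against 16.5% of eligible sequence, and over 5000 bp at 11.9% against 19.3%.

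Arrangement of the neighbouring genes was close to that of the sequence available. Genes diverged from the site on both sides at 169 sites (28.4%), against 27.9% of lower regions and 31.0% of eligible sequence. Tandem genes flanked 352 sites (59.1%), against 57.5% and 54.4%, and 74 sites (12.4%) lay between convergent genes, against 14.5% and 14.5%. At 1 site, the summit lay beyond the last gene of a chromosome. X distal sites were between convergent genes at 24.7%. In these sets the convergent share was 8.72%, 8.72%, 15.4% and 16.8% from highest to lowest. Convergent sites also had the lowest median signal value, 49.7, against 56.6 for divergent and 55.4 for tandem sites. A summit within 500 bp past the 3' end of a neighbour was found at 181 sites (30.4%), at 25.2% of lower regions and at 14.8% of eligible sequence. The rule bars summits near 5' ends but not near 3' ends, so this share includes sites such as site 8, 160 bp past hmg-1.1.

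The farthest sites lay in unusually long gaps. Site 22 was 13427 bp from the nearest 5' end, that of irld-18, in a gap of 35563 bp shared with dmd-6 (chrIV:14594248-14594683). It had a signal value of 164 pooled, 56.3 in replicate 1 and 110.0 in replicate 2, at ranks 407 and 96. A further 3 sites in the same gap faced dmd-6, with 91.1, 56.5 and 47.6 at 5531, 2319 and 3725 bp. Site 269 lay 12706 bp upstream of C31H1.2 in the gap of 33430 bp that begins at nhr-46, with 58.0 pooled, 20.9 in replicate 1 and 39.8 in replicate 2. Site 182 lay 10374 bp upstream of asp-13, an aspartyl protease gene, with 70.1 pooled, 26.8 in replicate 1 and 46.6 in replicate 2. All 3 were higher in replicate 2. Site 64 lay 11580 bp from a 5' end between plg-1, the copulatory plug gene, and K01F9.2, and site 143 lay 10448 bp from one, between irld-55 at 8704 bp and Y37A1B.7 at 9263 bp. The last 2 were at annotated RNA genes.

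An annotated non-coding gene or pseudogene other than the excluded small RNAs lay within 200 bp of 116 sites (19.5%), against 20.6% of lower regions and 24.99% of eligible sequence. The classes differed in direction. Genes annotated as ncRNA were near 74 sites (12.4%) against 7.02% and 3.88%, and 36 sites (6.04%) lay inside one against 2.81% and 1.30%. lincRNA genes were near 10 sites (1.68%) against 1.33% and 0.928%. Pseudogenes were near 19 sites (3.19%) against 8.38% and 13.5%. piRNA genes, which encode germline small RNAs and are clustered on chromosome IV, were near 12 sites (2.01%) against 4.39% and 7.26%. Antisense RNA genes were near 0 of the 596 sites, which allows a share of up to 0.503%, against 0.153% and 0.0802%. Of the sites near piRNA genes, the highest was site 28 at 21ur-13200, with 147 pooled, 68.7 in replicate 1 and 85.0 in replicate 2. For X distal sites no such background was made, since lower regions and eligible sequence were taken from autosomes only. Genes annotated as ncRNA were near 14.4% of X distal sites and held 10.2%. Pseudogenes were near 1.40% of them, piRNA genes near 0.930% and lincRNA genes near 0.930%.

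MicroRNA genes lay within 200 bp of 7 sites (1.17%), against 0.332% of lower regions and 0.173% of eligible sequence. MicroRNAs are processed from longer primary transcripts, whose starts are often not annotated. Site 64 lay 181 bp upstream of mir-80, with a signal value of 114 pooled, 44.9 in replicate 1 and 67.8 in replicate 2, at ranks 683 and 286. Site 113 lay inside the annotated gene of mir-51, with 86.4 pooled, 40.02 in replicate 1 and 52.4 in replicate 2, at ranks 904 and 528. Site 272 lay 38 bp upstream of mir-53, with 57.2 pooled, 31.97 in replicate 1 and 24.4 in replicate 2, at ranks 1539 and 3139. mir-51, mir-52 and mir-53 belong to 1 microRNA family, which is needed for embryonic development. A further site, 466, lay 191 bp upstream of mir-51, with 44.8 pooled and 10.5 in replicate 2, and had no match in replicate 1. Site 402 lay 184 bp past mir-52 with 48.3 pooled and 43.0 in replicate 1, and had no match in replicate 2. Site 520 lay 125 bp upstream of mir-42, with 42.6 pooled, 19.1 in replicate 1 and 19.4 in replicate 2. Site 588 lay inside the gene of mir-48, a let-7 relative that acts in developmental timing, with 40.2 pooled and 31.7 in replicate 1. Of these 7 sites, 4 were at the mir-51 family, and 57.1% of the 7 were in both replicate lists. Sites 113 and 466 were summits 208 bp apart, and the summit of site 466 lay inside the listed region of site 113. The 7 sites, and the 4 among them, therefore do not all stand for separate regions.

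Families were counted from lists of gene symbols, which are not complete, so genes of the same kinds outside a list were not counted. Among these lists, nuclear hormone receptor genes faced the most sites. They were the facing gene of 18 sites (14 genes), or 3.45% of the 521 sites with a facing gene, against 2.72% of lower regions and 2.07% of eligible sequence. Besides nhr-79 and nhr-21, nhr-20 had 142 pooled, 57.4 in replicate 1 and 80.4 in replicate 2, and nhr-4 had 138 pooled, 62.2 in replicate 1 and 79.98 in replicate 2. The gene nhr-88 had 3 sites and nhr-46 and nhr-4 had more than 1. Chemoreceptor genes, a very large gene group in this worm, faced 11 sites (2.11%) against 4.15% and 6.26%. The homeobox list faced 0 of the 521 sites, which allows up to 0.576%, against 0.926% and 0.939%. The ribosomal protein, translation factor, histone and heat shock lists also faced 0, each at 0.239% or less of lower regions and at 0.162% or less of eligible sequence. The list of other transcription factor symbols faced 4 sites (0.768%) against 1.05% and 0.904%, at ztf-7, daf-16, fkh-7 and zip-5. It leaves out other factor genes that faced sites, such as hif-1, mml-1, klf-1 and sptf-3. The site of daf-16, the FOXO factor of insulin signalling, lay 1903 bp upstream with 49.02 pooled, 13.3 in replicate 1 and 34.4 in replicate 2. F-box and MATH-BTB genes faced 5 sites (0.960%) against 0.657% and 1.73%. The cuticle collagen, C-type lectin and chromatin lists faced 1 each (0.192%), at col-17, clec-91 and lin-13. Lower regions and eligible sequence had 0.657% and 0.612% for collagens and 0.418% and 0.858% for lectins. For the chromatin list they had 0.329% and 0.178%. The chromatin list leaves out cbp-1 and chd-7, described above, and let-418, cec-1 and bet-1, which also faced sites. With so few sites a family, these shares carry wide counting error, and none was tested.

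The sequence under the summits was richer in GC than its surroundings. The mean GC content of the central 100 bp was 42.5% (SD 8.97 over 596 sites), against 35.0% (SD 8.82) in the 100 bp windows that begin 200 bp to either side. It was 36.4% at lower regions and 34.3% in eligible sequence, while promoter sites had 43.7% and X distal sites 42.2%. GC content was higher at higher signal values, with a mean of 40.3% in the lowest set and 45.9% in the highest. The 6-mers with the largest deficit at the centre were made of A and T alone: AAAAAT was in 28.4% of centres against 51.5% of flanks, and AAAATT in 23.8% against 43.8%.

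Of all 6-mers, with reverse complements joined, GAGAGA had the largest excess of centres over flanks. It was in the central 100 bp of 150 sites (25.2%, interval 21.7% to 28.9%), against 10.4% of flanks, 10.1% of lower regions, 5.45% of eligible sequence and 8.87% of all listed nuclear regions. Promoter sites held it at 14.9%, gene-body sites at 15.4% and X distal sites at 13.5%. In the sets from highest to lowest signal it was in 34.2%, 25.5%, 20.8% and 20.1% of sites. The 6-mers next in this order overlap it, and AGAGAC was in 15.3% of centres against 3.86% of flanks. GC content moved with it, with a median of 48% at the 150 sites that hold GAGAGA and 40% at the 446 that do not. The part of GC content in this share was not tested.

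CACGTG was in 65 sites (10.9%, interval 8.52% to 13.7%), against 2.27% of flanks, 2.02% of lower regions, 1.35% of eligible sequence and 2.81% of all listed nuclear regions. Promoter sites held it at 4.53%, gene-body sites at 5.08% and X distal sites at 7.44%. In the same sets it was in 15.4%, 12.1%, 7.38% and 8.72%. Both elements were together in 16 sites (2.68%), sites 3 and 7 among them, and in 0.204% of lower regions. Each element alone was also more frequent at the sites. Whether the elements met more often than their single shares give was not tested. Site 33, upstream of nhr-20, and site 55, 8280 bp upstream of aakg-1, a subunit gene of the AMP-activated kinase, also held both. Of the 20 highest sites 8 held GAGAGA and 4 held CACGTG. The E-box was most frequent near the summit: 23.5 of 1000 sites had a match that began in each of the 20 bp bins next to it. The single highest bin, centred 30 bp left, had 41.9 and its mirror 16.8, while bins over 100 bp away had 11.7 or less. The GA repeat was spread more broadly. The bins next to the summit had 80.5 of 1000 sites on the left and 58.7 on the right. The bin centred 90 bp left had 77.2 and the one centred 110 bp right had 63.8, while 490 bp left had 16.8.

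**Figure D4:**
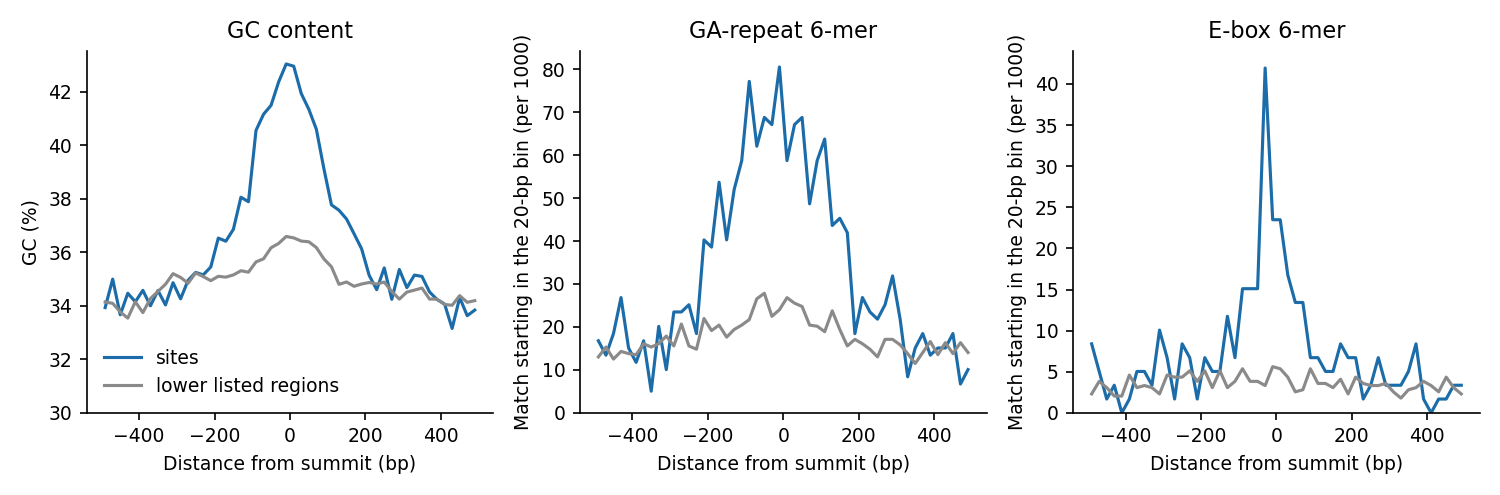
GC content (left, percent), the GA-repeat 6-mer (middle) and the E-box 6-mer (right, both as sites per 1000 with a match beginning in a 20 bp bin) by distance from the summit in bp, with the GC axis starting at 30%. Blue lines are the 596 sites and grey lines the 3916 listed regions of the same sequence under the signal minimum. At the summit GC content reaches 43.0% against 36.6% at the lower regions.

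A further element, AGACGCAG, was chosen after the 8-mers were ranked, as the first that is not a plain repeat. It was in 39 sites (6.54%), against 1.43% of flanks, 2.45% of lower regions, 0.687% of eligible sequence and 1.77% of all listed nuclear regions. Promoter sites held it at 5.35%, gene-body sites at 3.52% and X distal sites at 3.72%. At least 1 of the 3 elements was in 216 sites (36.2%), in 12.9% of lower regions and in 7.12% of eligible sequence. Site 1 holds GAGAGA in the longer stretch printed above but none of the 3 in its central 100 bp. The 8-mers were ranked on these same sites, so the shares describe them and were not tested.

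Of the other fixed motifs, TGATAA, the core of the element that GATA factors bind, was in 17.1% of sites against 11.7% of flanks and 10.3% of lower regions. CGCG was in 18.5% against 8.47% and 11.6%, and GGGCGG in 5.03% against 2.27% and 2.81%. CGCG was more frequent still at promoter sites (35.34%), gene-body sites (21.90%) and X distal sites (26.05%). GGGCGG was in 6.59% of promoter sites, 3.39% of gene-body sites and 4.19% of X distal sites. TTTTTT was in 28.7% of sites against 43.3% of flanks and 40.3% of lower regions. TTTGAA was in 14.1% against 26.7% and 25.6%, and TATAAA in 8.05% against 12.7% and 14.1%. TGATAA was in 8.48% of promoter sites, 11.5% of gene-body sites and 10.2% of X distal sites. The part of base composition in these motif shares was not tested. CTGTTTCA, the motif found upstream of piRNA genes, was in 1 site (0.168%), against 1.01% of flanks and 1.15% of lower regions. TTAGGC, the telomere repeat unit, was in 1.17% against 2.52% and 3.37%. GGTTCGA and the relaxed form of the B box of RNA polymerase III genes, GTTCNANNC, were in 1.51% and 3.86%, against 0.923% and 3.44% of flanks. TTCNNGAA, ATTGG and TGACTCA were in 4.70%, 18.6% and 0.671%, against 6.12%, 18.2% and 1.17% of flanks. A match is only a run of letters in the window, and says nothing of which factor bound there.

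Motif shares also differed with the neighbouring genes. GAGAGA was in 30.2% of divergent, 25.9% of tandem and 10.8% of convergent sites, and CACGTG in 11.8%, 11.4% and 6.76%. The convergent sites numbered 74, so their GAGAGA share rests on few sites. Sites in both replicate lists held GAGAGA at 26.1% and CACGTG at 12.4%. Those in replicate 1 only held them at 26.98% and 7.94%, and those in replicate 2 only at 16.4% and 3.28%. These groups numbered 63 and 61 sites, so their shares also rest on few sites. By chromosome GAGAGA ran from 19.7% on II to 34.4% on I, and CACGTG from 8.40% on V to 16.7% on I.

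**Figure D5:**
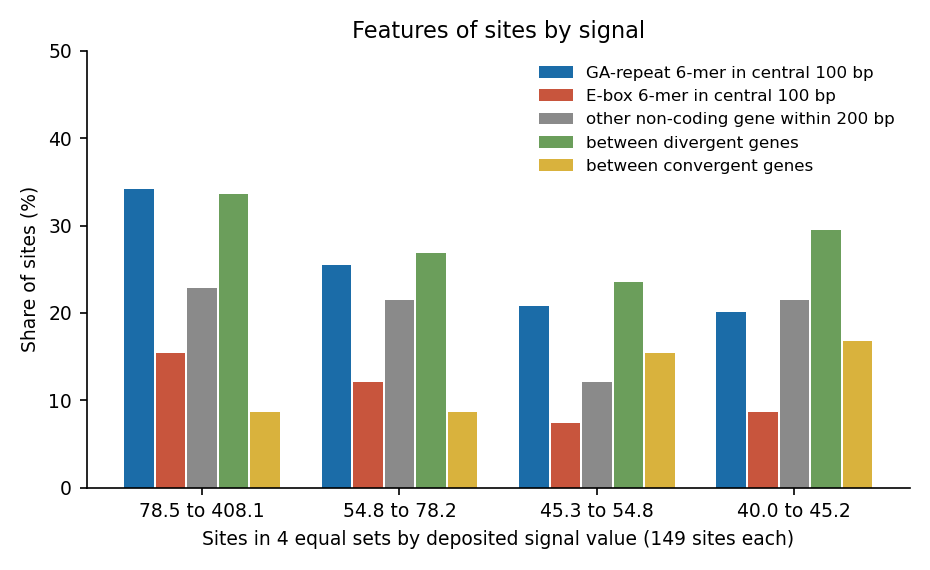
Share of sites (vertical axis, percent) with each feature, in 4 equal sets of the 596 sites ordered by deposited signal value (horizontal axis, highest set at the left). The GA-repeat 6-mer stands at 34.2% in the highest set and 20.1% in the lowest, the E-box 6-mer at 15.4% and 8.72%, and the share between convergent genes at 8.72% and 16.8%.

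Repeat-masked sequence was less common at the sites than at lower regions and in eligible sequence. The 300 bp at the summit was repeat-masked over at least 50% of its length at 66 sites (11.1%). The share was 24.7% at lower regions, 33.1% in eligible sequence and 16.6% over all listed nuclear regions. It was 18.2% at promoter sites, but lower than at the sites in gene-body sites (7.95%) and X distal sites (7.44%). A further genome copy of at least 100 bp at 90% identity or more was found for 43 sites (7.21%), against 10.1% of lower regions, 5.52% of promoter sites and 3.26% of X distal sites. More than 10 copies were found for 16 sites. The most, 391, belonged to site 297, with a signal value of 54.9. Counting either property, 90 sites (15.1%) were masked or repeated. Without them GAGAGA was in 27.7% and CACGTG in 11.9% of the remaining 506 sites. When each autosome was cut into 3 equal parts, the central one, where recombination is lower and genes are denser than on the arms, held 245 sites (41.1%), against 35.1% of lower regions and 31.0% of eligible sequence. For promoter sites the share was 44.6% and for gene-body sites 43.3%.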

How the data were processed

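ChIP-seq with an antibody against GFP was analysed from 2 biological replicates of 1 group. The authors deposited, per the labels, lists of peaks and background regions for each replicate and for both together, plus a thresholded set. Each region carries a deposited signal value over a control, whose scale is not given, and a deposited −log10 q-value, which sits at a ceiling at the named sites and was not used to rank. The same control served both replicates, per the file headers. The aligner, the peak caller and the threshold are not given in the sources used here. The ce11 lists were used; the ce10 lists were not used here.

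Positions are ce11 and 1-based. Ensembl release 115 supplied the gene models and RefSeq the sequence, both WBcel235. Each summit was placed by its deposited offset. Replicate summits were matched within 100 bp, and other non-coding genes were taken within 200 bp. Motifs were searched on both strands in the central 100 bp and in flanks from 200 bp. Copies were found with BLAST+ 2.17.0 on 300 bp (at least 100 bp, 90% identity), and repeat masking was that of the RefSeq sequence. Eligible sequence was sampled every 500 bp. Shares have exact Clopper-Pearson 95% intervals where given. They cover the counting of sites only, and a count of 0 allows 3. Python 3.11.15, pandas 2.3.3, numpy 2.4.6 and scipy 1.17.1 were used, and position classes and motif search were tested on simulated data.

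The text names the 20 highest sites, up to 3 of each class of neighbouring RNA gene, the 5 farthest from a 5' end, the sites nearest each limit and the 12 gene families. Genes with several sites, genes outside a family list, the tagged gene, sites with most copies or in 1 replicate list and the other microRNA sites were chosen after their values were seen. Members, lists and motifs were chosen with earlier results of these data known. Depth is unknown, and no test was made.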

Additional observations from a re-analysis of the deposited data

How the results depend on the processing

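Of 80 alternatives, 44 moved their result by less than its counting error (for the number of sites, by less than 1.5 times; for the median distance, by less than the spread between the replicate lists) and 36 by more, and the values below are shifts, whose causes were not tested. Signal minima of 30, 60 and 80 gave 1126, 247 and 138 sites. For lists of 1 replicate the 3393 highest regions were taken, not those over a minimum of 40. This cut fell at signal values of 23.1 in replicate 1 and 23.6 in replicate 2, and gave 547 and 581 sites. A fixed number of regions largely sets these counts. They therefore cannot show whether the number of sites holds at the minimum of 40 in 1 replicate, although both are counted among the 44. The share of sites in both replicate lists was 53.4% within 50 bp, 92.8% within 200 bp, 40.1% among the highest regions, 89.5% at a minimum of 60 and 91.3% at 80. The thresholded share was 55.5% and 99.3% at these minima. The divergent share was 33.0% with a limit of 250 bp from a 5' end and 35.5% at a minimum of 80. The median distance to a 5' end was 1617 and 1774 bp at the minima of 60 and 80, 1603 to 1668 bp in the lists of 1 replicate, and 1782 bp with gene boundaries only. Non-coding genes were at 9.23% of sites when the summit had to be inside, 27.2% within 500 bp, 23.1% at 60 and 23.2% at 80. GAGAGA was in 38.9% of sites over 200 bp, 48.3% over 300 bp, 31.98% at 60 and 34.1% at 80. CACGTG was in 15.9% over 200 bp and 18.8% over 300 bp, and in 8.61% and 7.31% of the sites of replicates 2 and 1 alone. AGACGCAG was in 12.8% over 200 bp, 15.3% over 300 bp, 8.91% at 60 and 10.9% at 80. The convergent share was 7.97% at 80. The middle 50% of each autosome held 62.4% of sites, and 47.3% of eligible sequence. Every alternative for AGACGCAG, and leaving masked or repeated sites out of the motif shares, was chosen after seeing the data. No paired analysis was possible because there is 1 group and no test. Unknown depth limits any statement that a region lacks signal.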
